A study of Mus musculus with 19 samples.

Results

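The CXC chemokine loci comprised the chromatin around 8 mouse genes, Cxcl1, Cxcl2, Cxcl5, Cxcl9, Cxcl10, Cxcl11, Cxcl12 and Cxcl16. A peak, that is a region of open chromatin in the ATAC-seq table, was taken as a member when its centre lay in the body of one of these genes or within 20 kb of either end. The rule used positions only, but the genes were chosen with earlier results of these data known. It found 21 peaks of the 90154 in the table, each 500 bp long. All 21 passed the filter on low values and were tested.

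CXC chemokines are small secreted proteins that draw leukocytes along a gradient by binding G-protein-coupled receptors. Cxcl1, Cxcl2 and Cxcl5 attract neutrophils through Cxcr2, and NF-κB, a transcription factor that TNF activates, is a well-known regulator of Cxcl1 and Cxcl2. Cxcl9 and Cxcl10 are interferon-inducible ligands of Cxcr3, a receptor of activated T cells, and Cxcl10 is a common product of inflamed astrocytes. Their neighbour Cxcl11 is annotated as a transcribed pseudogene. Cxcl12 guides neural progenitors and other cells through Cxcr4, and Cxcl16 is a membrane-anchored chemokine that binds Cxcr6.

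The cells were wild-type C57BL/6J mouse neural stem cells of embryonic day 14, dissected from the ventricular zone and grown with EGF as floating neurospheres (NSPs), each from a single brain. Culture in serum on poly-L-ornithine then differentiated them towards astrocytes, and some cultures also received 50 ng/ml of the inflammatory cytokine tumor necrosis factor (TNF). NSPs and each of the 24 h and 72 h groups, untreated or given TNF, had 3 libraries, and untreated cells kept for 1 week had 4. Each library holds the chromatin of many cells together, so fewer open cells and less open chromatin per cell cannot be told apart. ATAC-seq measures how often a transposase cuts open DNA, and each value is a normalised read count, the reads in a peak divided by a size factor of the library.

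Reads in peaks ranged from 28636739 to 39349111 in NSPs and from 9640256 to 25165008 in the other groups. The names of the 10 libraries of 72 h, 72 h with TNF and 1 week carry a tag that the other 9 lack. In the comparisons of 72 h and 1 week with NSPs, the tag and the group therefore cannot be told apart, while libraries of the same tag status were compared for 24 h against NSPs, for TNF against no TNF, and for 1 week against 72 h. Astrocyte markers had a peak within 1 kb of a gene end for 6 of 7 genes, Aqp4 being the exception. From NSPs to 1 week the mean level was higher at 3 of them, Gfap (107.6 to 258), Gja1 (91.9 to 148) and Slc1a3 (251.2 to 330), and lower at the other 3, S100b (562 to 178), Slc1a2 (319 to 250.2) and Aldh1l1 (89.3 to 68.1). Of 7 microglia and macrophage markers, only P2ry12 and Tmem119 had such a peak, and Cx3cr1, Aif1, Ptprc, Csf1r and Itgam had none in the table.

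The sequences just before the starts of Cxcl10, Cxcl1 and Cxcl2 are shown because the largest differences with TNF lay at the start of Cxcl10 and near Cxcl1, and because Cxcl2 is the neighbour of Cxcl1 with the same motif. Neither peak in the window of Cxcl2 was called with TNF when all groups were in the fit. RefSeq (GRCm38.p6) gave the 250 bases before the start for 5 of the 8 genes, Cxcl1, Cxcl2, Cxcl9, Cxcl10 and Cxcl12. Both strands were searched for the NF-κB consensus, for the AP-1 motif TGANTCA and for the interferon response core GAAANNGAA. At Cxcl10 the whole of this window, chr5:92348890-92349139 on the minus strand, lay inside a peak. It held 2 separate NF-κB matches, 1 AP-1 match and 1 interferon response core, none of which overlapped a match of another kind. Written 5′ to 3′ with these matches in capitals, in the order interferon response core, NF-κB, NF-κB and AP-1, the window reads
Cxcl10: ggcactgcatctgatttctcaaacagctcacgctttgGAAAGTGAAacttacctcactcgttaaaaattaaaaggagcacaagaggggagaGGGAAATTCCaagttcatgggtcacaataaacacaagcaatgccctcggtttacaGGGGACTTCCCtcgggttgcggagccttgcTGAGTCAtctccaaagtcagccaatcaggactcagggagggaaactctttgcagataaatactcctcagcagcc
The stretches of 50 bases around the NF-κB match of Cxcl1, chr5:90891155-90891204, and of Cxcl2, chr5:90903783-90903832, both on the plus strand, show the same 11 letters in each gene, written 5′ to 3′ with the match in capitals.
Cxcl1: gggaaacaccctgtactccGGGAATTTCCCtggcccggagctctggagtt
Cxcl2: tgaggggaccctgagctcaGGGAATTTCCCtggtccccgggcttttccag
In both stretches, and at the second match of Cxcl10, the consensus was met at adjacent positions or on both strands, and overlapping matches were merged. Neither Cxcl1 nor Cxcl2 held the other motifs, Cxcl9 held only an interferon response core, and Cxcl12 held none of the 3. Over 32851 promoter windows of this length, 7.25% held the NF-κB consensus, 6.75% the AP-1 motif and 7.13% the interferon response core. A peak overlapped 39.8% of all these windows. No peak of the table overlapped those of Cxcl1, Cxcl2 and Cxcl9, and the one at Cxcl12 was overlapped over 100 of its 250 bases.

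The 21 peaks fell into 5 loci, in which genes with overlapping windows were joined. On chromosome 5, Cxcl5 had 3 peaks, Cxcl1 and Cxcl2 together had 3, and Cxcl9, Cxcl10 and Cxcl11 together had 10. Cxcl12 on chromosome 6 had 3 peaks and Cxcl16 on chromosome 11 had 2. Shared peaks, those in the windows of more than 1 member, numbered 6, each in exactly 2 windows. All 4 peaks of Cxcl10 were shared, 1 with Cxcl9 and 3 with Cxcl11, and both peaks of Cxcl2 were shared with Cxcl1. The other 15 belonged to 1 gene, among them all those of Cxcl5, Cxcl12 and Cxcl16. A peak within 1 kb of an end was present for Cxcl5, Cxcl10, Cxcl11, Cxcl12 and Cxcl16, whereas the closest peak lay 6.2 kb from Cxcl1, 3.52 kb from Cxcl2 and 4.58 kb from Cxcl9. Only 3 centres lay inside a member gene, 2 in Cxcl12 and 1 in Cxcl16, and 11 peaks overlapped a gene other than a member. Most of the latter lay in Art3, an ADP-ribosyltransferase gene that spans the Cxcl10 and Cxcl11 region, so their assignment to a chemokine rests on distance alone. Cxcl11 is listed as a transcribed pseudogene in the RefSeq gene table.

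**Figure D1:**
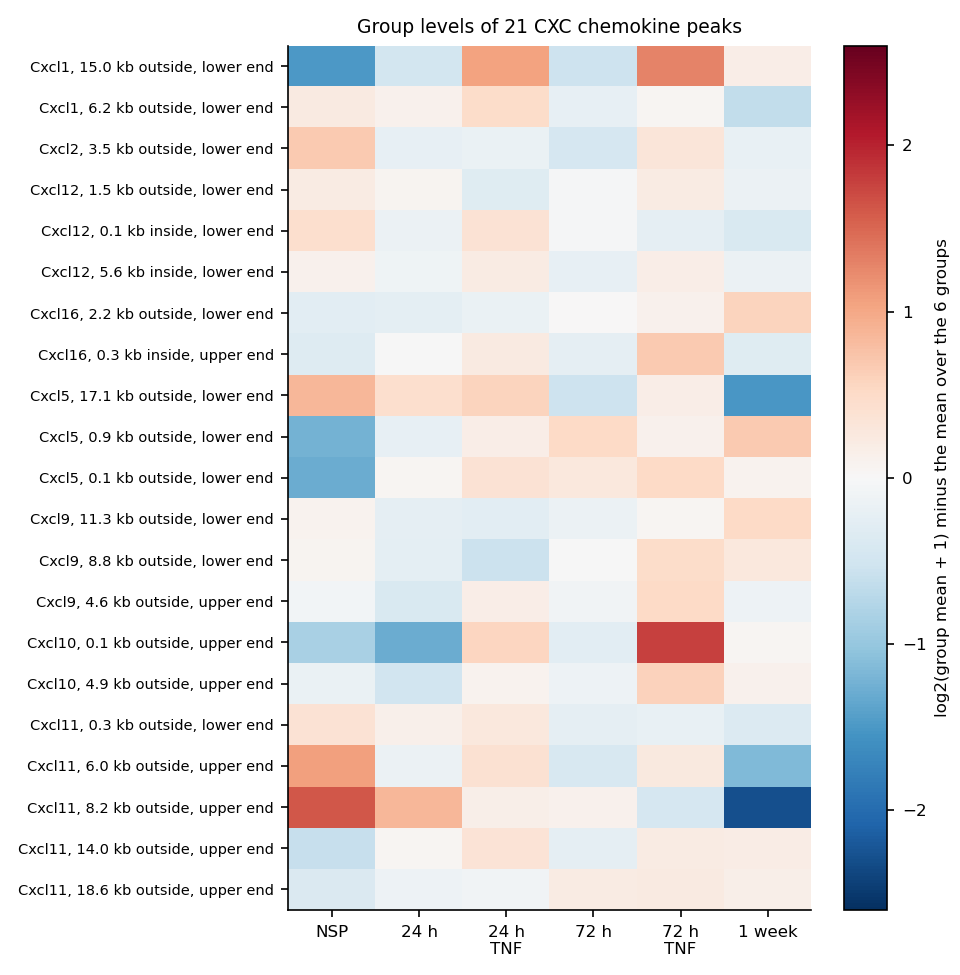
Heat map of the 21 peaks (rows, named by the nearest gene, the distance of the centre from its end in kb and which end) over the 6 groups (columns), coloured by log2(group mean + 1) minus the mean over the groups. The Cxcl10 peak at 0.1 kb and the Cxcl1 peak at 15.02 kb are highest in the TNF groups, and the Cxcl11 peak at 8.2 kb runs from its highest level in NSPs to a mean of 2.65 at 1 week.

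Whether TNF changed accessibility at these loci was asked by setting treated against untreated cells of the same time. At 24 h, 4 of the 21 peaks rose with TNF, and at 72 h 4 rose, the same 4 peaks at both times, where 3.65% of all peaks tested rose at both. They were the peak at the start of Cxcl10, a peak 15.02 kb before Cxcl1, a peak 4.93 kb before Cxcl10 and a peak 5.98 kb beyond the upper end of Cxcl11. A peak was called when limma-trend gave it an adjusted p (Benjamini-Hochberg, over the 88919 peaks tested) below 0.05. Of these peaks 7.06% were called higher and 3.53% lower at 24 h, and 6.24% higher and 5.55% lower at 72 h. Without replicate 3 of 24 h with TNF, 2 members were called higher at 24 h. No member peak was called lower at either time by limma-trend, edgeR or DESeq2. At an unadjusted p under 0.05, each of these tools gave 0 lower members at 24 h and 1 at 72 h, where limma-trend gave 9.84% and 11.7% of all peaks. The median log2 difference of the members was 0.30 at 24 h and 0.39 at 72 h, against -0.03 and 0.03 over all peaks tested, and 17 of 21 differences were above 0 at each time, 14 at both. Over all peaks 46.5% were above 0 at 24 h, 53.2% at 72 h and 32.8% at both. Because the genes were chosen with earlier results known, these shares are a description.

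Cxcl10 showed the largest difference with TNF. Its start peak, chr5:92348735-92349235, had normalised read counts of 35.3, 39.8 and 39.4 at 24 h and of 171, 109.9 and 141 at 24 h with TNF. At 72 h the values were 78.5, 104 and 51.0, and with TNF they were 334, 304 and 347. The groups did not overlap at either time, and the 72 h TNF libraries were above all other libraries. The log2 difference was 1.83 ± 0.22 (SE, n = 3 and 3, adjusted p = 1.46e-06 in limma-trend) at 24 h and 2.12 ± 0.22 (adjusted p = 1.4e-07) at 72 h. These values rested on 27 to 32 reads per library at 24 h and 102 to 193 with TNF, and on 40 to 87 at 72 h and 206 to 374 with TNF. This peak covers the NF-κB, AP-1 and interferon matches shown above, and it also overlaps Art3.

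The peak 4.93 kb before Cxcl10, chr5:92353566-92354066, is shared by Cxcl10 and Cxcl11 and lies in Art3. It was named after its values were seen. Its values were 146, 145 and 123 at 24 h, and 217, 185 and 225 with TNF. At 72 h they were 162, 199 and 175, and 294, 276 and 319 with TNF. Treated and untreated libraries did not overlap at either time. The log2 difference was 0.60 ± 0.15 (adjusted p = 0.00781) at 24 h and 0.73 ± 0.15 (adjusted p = 0.0012) at 72 h. Without replicate 3 of 24 h with TNF, the first was 0.54 with an adjusted p of 0.0516.

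The peak 5.98 kb beyond the upper end of Cxcl11, chr5:92369031-92369531, also in Art3, rose with TNF from a level that had fallen with differentiation. It had values of 184, 195 and 150.3 at 24 h and of 290.1, 215 and 272 with TNF. At 72 h these were 162, 133 and 148, against 204, 270.5 and 226 with TNF. Treated libraries were above the untreated ones of the same time and below all NSP libraries. The log2 differences were 0.55 ± 0.17 (adjusted p = 0.0382) and 0.65 ± 0.17 (adjusted p = 0.012). The 24 h call was also lost with loess offsets (adjusted p = 0.0525) and with a replicate block by title number (0.0528). Calls at both times were lost without single libraries: the adjusted p was 0.0747 without replicate 1 and 0.167 without replicate 3 of 24 h, 0.171 and 0.138 without replicates 1 and 3 of 24 h with TNF, 0.0633 without replicate 2 of 72 h, and 0.0833 without replicate 2 of 72 h with TNF.

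Between these peaks lay the one closest to Cxcl11, chr5:92358997-92359497, 0.3 kb outside its lower end, which did not pass the test. Its log2 differences with TNF were 0.20 ± 0.32 at 24 h (95% interval -0.45 to 0.84) and 0.06 ± 0.32 at 72 h (-0.59 to 0.70). The peak closest to Cxcl9, chr5:92332407-92332907, had values of 27.3, 17.7 and 44.3 at 24 h and of 46.9, 47.4 and 39.5 with TNF. At 72 h it had 32.2, 46.7 and 33.1 without and 52.7, 65.0 and 52.8 with TNF. The groups overlapped at 24 h and not at 72 h, and neither difference passed the test (0.65 ± 0.31, adjusted p = 0.201, and 0.61 ± 0.31, adjusted p = 0.222).

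**Figure D2:**
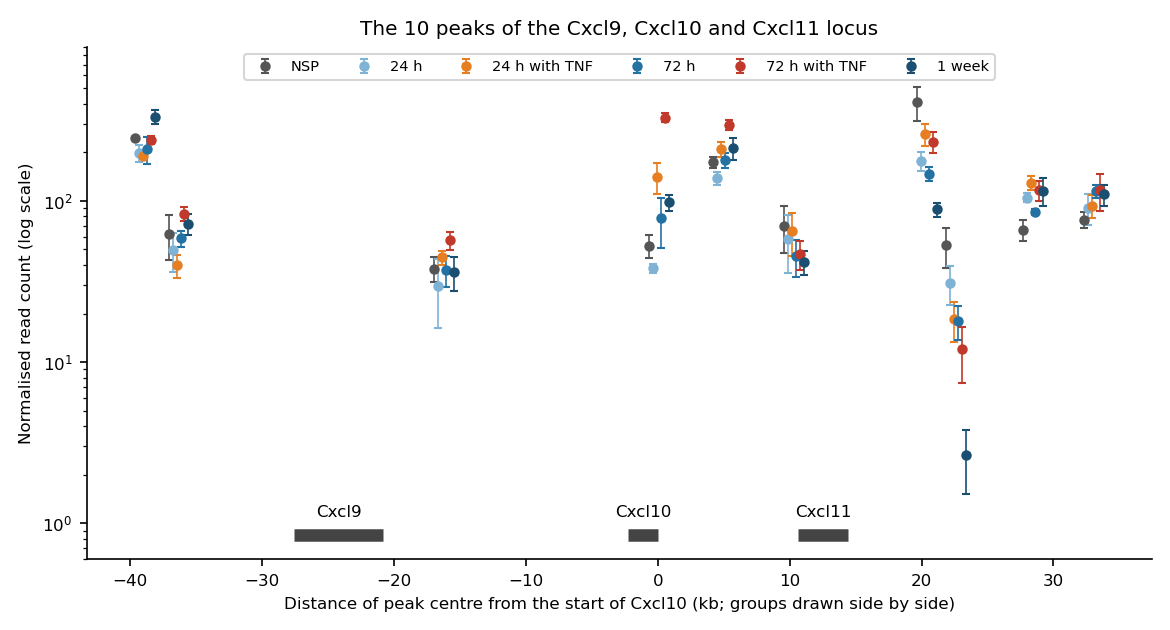
Normalised read count (log scale, mean ± SD of 3 libraries, 4 at 1 week) of the 10 peaks against the distance of their centre from the start of Cxcl10 in kb, with the groups drawn side by side and the 3 genes as bars at the bottom. The TNF groups stand above the untreated groups of their time at the Cxcl10 start, where the means were 140.6 against 38.2 at 24 h and 329 against 77.8 at 72 h.

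Among the ligands of Cxcr2, a single distal peak rose with TNF. The peak 15.02 kb before Cxcl1, chr5:90875978-90876478, lies in the window of Cxcl1 alone and in no annotated gene. It had values of 69.5, 78.2 and 109.6 at 24 h and of 228, 271 and 251 with TNF. At 72 h it had 86.2, 65.8 and 94.3 without and 302, 282 and 298 with TNF. No treated library overlapped an untreated one of any time. The log2 difference was 1.56 ± 0.20 (adjusted p = 3.28e-06) at 24 h and 1.84 ± 0.20 (adjusted p = 2.5e-07) at 72 h.

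The remaining peaks of Cxcl1, Cxcl2 and Cxcl5 did not pass the test with TNF. The peak 3.52 kb before Cxcl2, chr5:90900129-90900629, had 24.4, 38.3 and 45.9 at 72 h and 60.8, 72.4 and 51.6 with TNF, which do not overlap (log2 difference 0.78 ± 0.30, adjusted p = 0.095). With only the compared groups in the fit, its adjusted p at 72 h was 0.046. At 24 h it had 43.3, 59.0 and 25.9, and 36.3, 50.6 and 44.7 with TNF, which do. The peak 6.2 kb before Cxcl1, chr5:90884798-90885298, differed by 0.35 ± 0.31 and 0.28 ± 0.31.

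At Cxcl5, the peak 0.94 kb outside its lower end, chr5:90758110-90758610, went opposite ways at the 2 times without passing the test at either. Its values were 118, 121 and 135 at 24 h against 131, 170.2 and 190.04 with TNF, and 226, 199 and 200.1 at 72 h against 175, 171 and 123.6 with TNF. The log2 differences were 0.37 ± 0.19 (adjusted p = 0.249) and -0.42 ± 0.19 (adjusted p = 0.159). The test of the change between times gave -0.80 ± 0.27, with an unadjusted p of 0.00615 and an adjusted p of 0.501.

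Cxcl12 and Cxcl16 had no called difference with TNF. The start peak of Cxcl12, chr6:117168435-117168935, had 53.5, 90.0 and 43.1 at 24 h and 86.7, 100.2 and 84.1 with TNF, with 1 untreated library among the treated ones (0.60 ± 0.24, adjusted p = 0.128). Without that library, replicate 2 of 24 h, the difference was 0.89 with an adjusted p of 0.0238. At 72 h the difference was -0.22 ± 0.24 (95% interval -0.72 to 0.28). The peak 0.31 kb inside the upper end of Cxcl16, chr11:70459427-70459927, which also overlaps Zmynd15, had 29.6, 31.1 and 29.3 at 72 h. With TNF its values were 70.6, 50.3 and 52.8, all above the untreated ones (0.91 ± 0.34, adjusted p = 0.0849). With only the compared groups in the fit, the adjusted p was 0.0216. The 10 peaks of the loci not given so far differed with TNF by log2 values between -0.72 and 0.53 at 24 h and between -0.59 and 0.62 at 72 h, and none passed the test. Among them was the peak 8.78 kb outside the lower end of Cxcl9, chr5:92312302-92312802. Its values were 35.3, 62.0 and 51.7 at 24 h against 37.1, 47.4 and 35.3 with TNF, which overlap. At 72 h they were 64.3, 51.4 and 59.9 against 89.4, 85.7 and 74.4 with TNF, which do not. At the Cxcl12 peak of 5.55 kb and the Cxcl11 peak of 14.03 kb, treated libraries were above untreated ones at each time. The log2 differences were 0.32 and 0.39 at the first (adjusted p = 0.331 and 0.175). At the second they were 0.30 and 0.43 (0.373 and 0.141). At the Cxcl11 peak of 8.24 kb and the Cxcl12 peak of 1.51 kb, treated libraries were below all untreated ones at 24 h only.

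**Figure D3:**
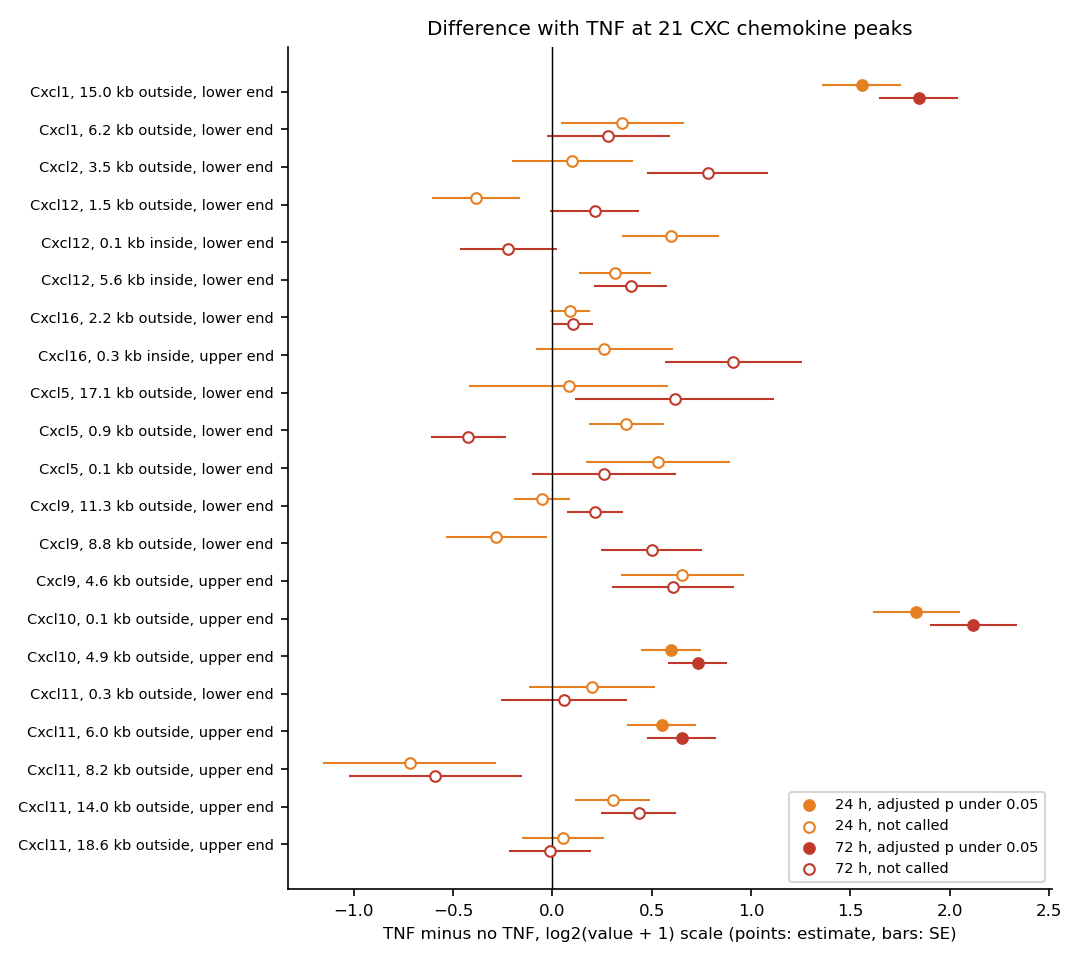
Difference between TNF-treated and untreated cells on the log2(value + 1) scale (x axis, points with SE bars) for the 21 peaks (y axis) at 24 h and 72 h, with filled points for adjusted p under 0.05. Filled points stand at the same 4 peaks at both times, from 0.55 to 2.12.

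None of the 21 peaks differed between the TNF effect at 72 h and that at 24 h in limma-trend, edgeR or DESeq2 after adjustment, and 0.00112% of all peaks did in limma-trend. At an unadjusted p under 0.05, each tool gave 1 member with a higher and 2 with a lower effect at 72 h, where limma-trend gave 3.59% and 3.92% of all peaks. For the Cxcl10 start peak, the difference of the effects was 0.29 ± 0.31 with a 95% interval from -0.35 to 0.93. For the Cxcl1 peak at 15.02 kb it was 0.29 ± 0.28 with an interval from -0.29 to 0.86.

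The start peak of Cxcl10 and the Cxcl1 peak at 15.02 kb were called at both times under each of the 16 alternatives tried. At Cxcl10 the log2 difference lay between 1.68 and 2.00 at 24 h and between 1.85 and 2.36 at 72 h. At Cxcl1 it lay between 1.42 and 1.75 and between 1.69 and 1.95. The summed level of the gene-end peaks of the 6 astrocyte markers was lower with TNF, 1148 to 1278 against 1404 to 1658 at 24 h and 1165 to 1237 against 1560.0 to 1671 at 72 h, and its part in these results was not tested. At 24 h the mean of 5 of the 6 was lower and that of Slc1a3 higher (189 to 217), and at 72 h 5 were lower, with the largest falls at Gfap (529 to 246) and S100b (282 to 194), and Slc1a2 was higher (265 to 289). The sums of the microglial peaks of P2ry12 and Tmem119 overlapped, with 106.1 to 137 in treated against 128 to 161 in untreated cells at 24 h, and 94.8 to 115 against 93.3 to 133 at 72 h.

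**Figure D4:**
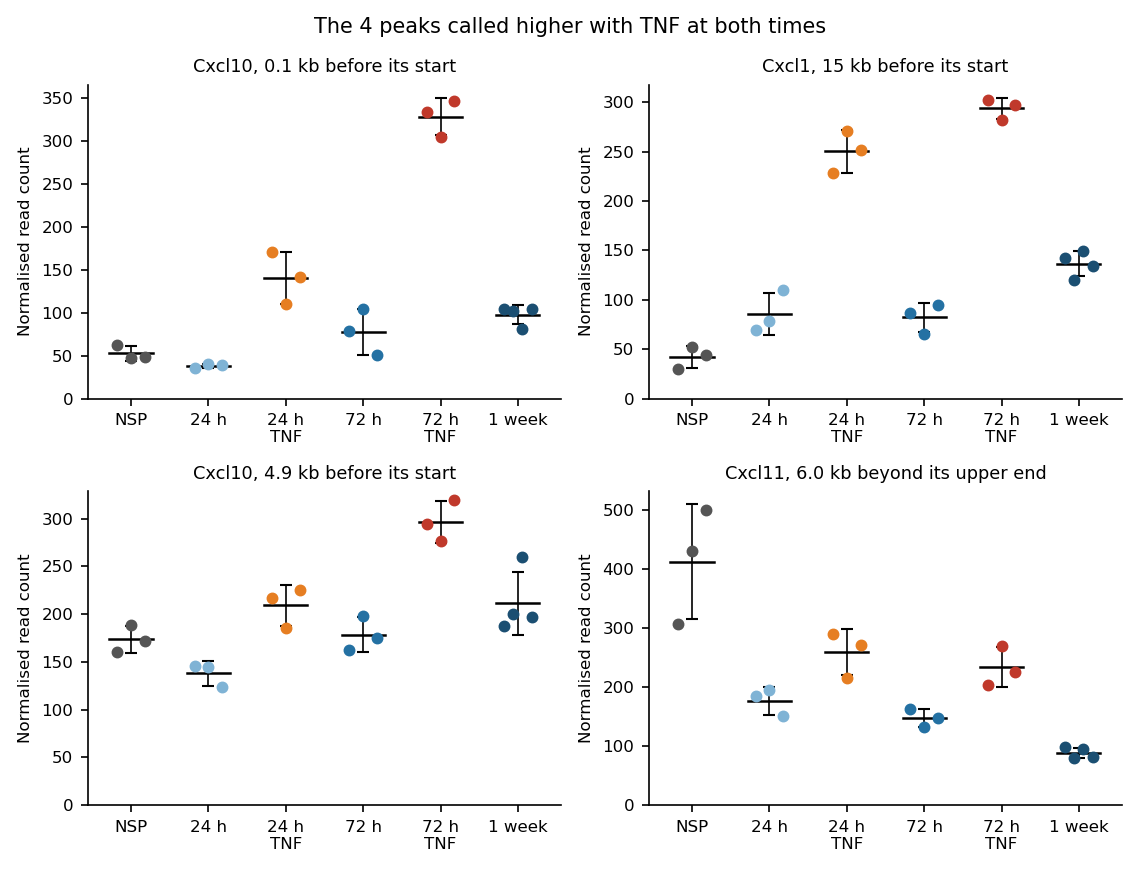
Normalised read count of every library (points) with the group mean and SD (bars) for the 4 peaks called higher with TNF at both times. At the Cxcl10 start and at the Cxcl1 peak the TNF libraries at 72 h sit between 282 and 347, above all untreated libraries, while at the Cxcl11 peak the NSP libraries, from 307 to 500.4, are the highest.

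How the loci changed as NSPs differentiated was asked by setting 24 h, 72 h and 1 week against the same NSP libraries. At 24 h, 4 of 21 peaks were higher and 3 lower. At 72 h, 6 were higher and 4 lower, and at 1 week 8 were higher and 7 lower. Over all peaks, 24.2% were higher and 23% lower at 24 h, 28.3% and 30.9% at 72 h, and 33.7% and 33.6% at 1 week, so the members' counts lay near the background. Both directions occurred within the same locus. The 3 peaks that rose at all 3 times were 2 of Cxcl5 and the Cxcl1 peak at 15.02 kb, and the 2 that fell at all 3 were the Cxcl2 peak at 3.52 kb and the Cxcl11 peak at 5.98 kb. Over all peaks 18.7% rose and 14.2% fell at all 3. Without replicate 3 of 24 h, only 1 peak was lower at 24 h. NSP replicate 1 stood apart from the other NSP libraries. The chi-square per degree of freedom of its reads was 27.7 against replicate 2 and 24.4 against replicate 3. Between replicates 2 and 3 it was 3.72, and within the other groups it ran from 2.303 to 3.775. Without NSP replicate 1, 5 peaks were higher and 4 lower at 24 h, 6 and 6 at 72 h, and 8 and 7 at 1 week.

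The Cxcl5 peak at 0.94 kb had 84.7, 49.9 and 49.2 in NSPs, 118, 121 and 135 at 24 h, 226, 199 and 200.1 at 72 h, and 239.8, 231, 213 and 255 at 1 week. Every untreated differentiating library was above all NSP libraries. The log2 differences from NSPs were 1.06 ± 0.19 (adjusted p = 3.79e-05), 1.79 ± 0.19 (3.79e-09) and 1.97 ± 0.18 (7.67e-11). The neighbouring Cxcl5 peak at 0.15 kb, chr5:90758899-90759399, which overlaps the gene end, had 29.8, 13.7 and 9.97 in NSPs, 38.7, 20.7 and 80.1 at 24 h, 50.2, 47.8 and 66.3 at 72 h, and 53.8, 45.2, 50.6 and 41.8 at 1 week. It overlapped NSPs at 24 h and not later, with differences of 1.27 ± 0.36 (adjusted p = 0.00485), 1.70 ± 0.36 (0.000208) and 1.51 ± 0.34 (0.000267). Without replicate 3 of 24 h the first was 0.78, with an adjusted p of 0.0844, and with only the compared groups in the fit the adjusted p was 0.0714.

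The third Cxcl5 peak went the other way. It lies 17.07 kb outside the lower end, chr5:90741974-90742474, and had 39.1, 35.3 and 39.9 in NSPs, 28.5, 25.1 and 30.8 at 24 h, 11.6, 16.7 and 12.7 at 72 h, and 0.882, 10.9, 6.60 and 7.51 at 1 week. The groups of these 4 times did not overlap. The difference from NSPs was -1.43 ± 0.50 (adjusted p = 0.0155) at 72 h and -2.66 ± 0.47 (adjusted p = 1.17e-05) at 1 week. At 72 h the call was lost without replicate 1 of 72 h (adjusted p = 0.0506) and with loess offsets (-0.98, 0.0981). The 1 week values rested on 1 to 14 reads per library, where 1 read is the lowest value a library holds.

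At Cxcl1, which was higher with TNF at its distal peak, the same peak also rose with differentiation. It had 30.4, 51.8 and 44.5 in NSPs and 143, 120.02, 149.6 and 134 at 1 week. The difference from NSPs was 1.01 ± 0.20 (adjusted p = 0.000119) at 24 h, 0.96 ± 0.20 (0.000141) at 72 h and 1.70 ± 0.19 (3.48e-09) at 1 week, and no untreated differentiating library was as low as an NSP library. The peak 3.52 kb before Cxcl2 fell, from 75.9, 79.6 and 85.1 in NSPs to 43.3, 59.0 and 25.9 at 24 h, 24.4, 38.3 and 45.9 at 72 h, and 39.7, 58.4, 28.6 and 46.1 at 1 week. All NSP libraries were above all later untreated ones, by a log2 difference of -0.97 ± 0.30 (adjusted p = 0.0101), -1.17 ± 0.30 (0.00161) and -0.92 ± 0.28 (0.0056). Without replicate 3 of 24 h the first was -0.65, with an adjusted p of 0.102. The peak 6.2 kb before Cxcl1 was lower at 1 week, by -0.89 ± 0.29 (adjusted p = 0.00788), a call that was lost without NSP replicate 2 (adjusted p = 0.0566) or 3 (0.0544).

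In the Cxcl9, Cxcl10 and Cxcl11 locus, the largest falls lay beyond Cxcl11. The peak at 5.98 kb had 307, 432 and 500.4 in NSPs and 97.9, 80.3, 94.6 and 81.5 at 1 week, with the 24 h and 72 h libraries between them. Its differences from NSPs were -1.20 ± 0.17 (adjusted p = 1.54e-06), -1.45 ± 0.17 (3.39e-08) and -2.18 ± 0.16 (1.01e-12). The peak at 8.24 kb, chr5:92371281-92371781, had 36.2, 59.8 and 63.1 in NSPs and 15.4, 15.6 and 22.9 at 72 h. At 1 week it had 1.76, 2.34, 2.20 and 4.29. These rested on 1 to 4 reads per library, where 1 read is the lowest value a library holds. The 3 groups did not overlap, and the difference from NSPs was -1.49 ± 0.44 (adjusted p = 0.00429) at 72 h and -3.89 ± 0.41 (1.49e-09) at 1 week. With loess offsets the 72 h difference was -0.91, with an adjusted p of 0.0728.

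Other peaks of the locus rose. The Cxcl10 start peak had 62.5, 47.6 and 47.8 in NSPs and 104.04, 102, 81.4 and 104.01 at 1 week, without overlap (0.89 ± 0.21, adjusted p = 0.000407). Its difference at 72 h, 0.51 ± 0.22 with an adjusted p of 0.0482, was lost without replicate 2 or 3 of NSPs (adjusted p = 0.131 and 0.126) or without replicate 1 or 2 of 72 h (0.113 and 0.327), and was 0.27 in the last case. It was also lost with no filter (0.052), with loess offsets (0.117), with only the compared groups (0.159) and with a replicate block by title number (0.0518). At 24 h it was -0.44 ± 0.22 (adjusted p = 0.0993). The peak 14.03 kb beyond Cxcl11, chr5:92377077-92377577, had 77.7, 60.8 and 59.8 in NSPs and 110.4, 97.4 and 105.9 at 24 h, and rose by 0.66 ± 0.19 (adjusted p = 0.00481) at 24 h and by 0.79 ± 0.18 (0.000254) at 1 week. The peak at 18.65 kb, chr5:92381695-92382195, was higher by 0.59 ± 0.21 (adjusted p = 0.0166) at 72 h and by 0.51 ± 0.19 (0.023) at 1 week, calls that were lost without NSP replicate 3 (0.0673 and 0.0946), without replicate 1 of 72 h (0.0679) and without replicate 4 of 1 week (0.0786). The 1 week call was also lost with total-read scaling (0.06) and with a replicate block by title number (0.0634). The peak 0.3 kb outside Cxcl11 was lower at 1 week by -0.69 ± 0.30 (adjusted p = 0.0396). That call was lost without NSP replicate 2 or 3 and without replicate 1, 3 or 4 of 1 week, with adjusted p-values from 0.0676 to 0.204, and with a replicate block by title or library name number (0.0772 and 0.0777).

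**Figure D5:**
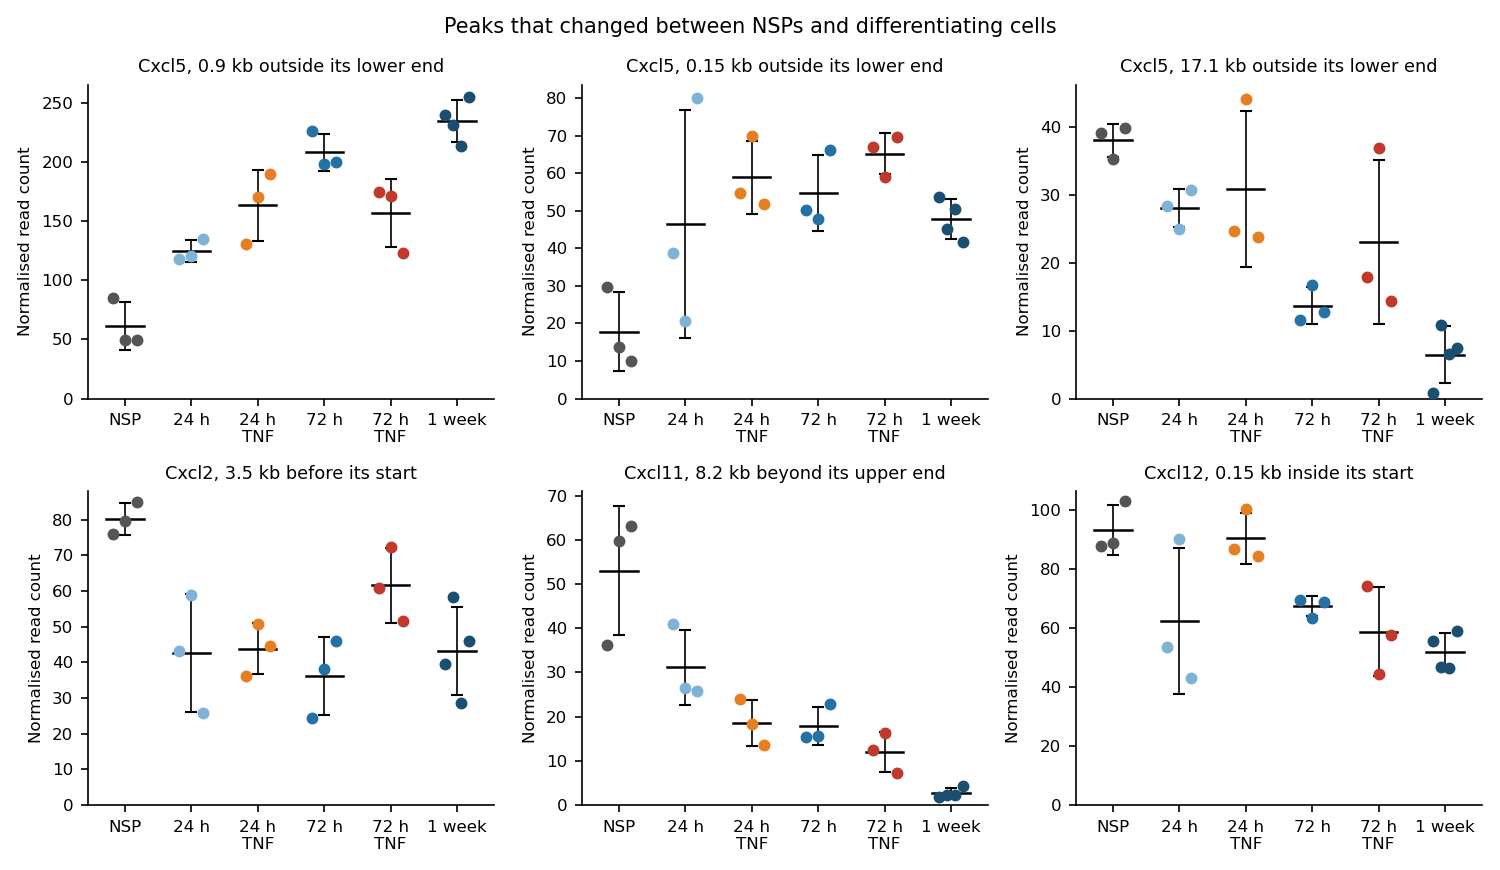
Normalised read count of every library (points) with the group mean and SD (bars) at 6 peaks called in at least 1 comparison with NSPs. They are 3 of Cxcl5 and 1 each of Cxcl2, Cxcl11 and Cxcl12. The Cxcl5 peak at 0.9 kb climbs from a mean of 61.3 in NSPs to 235 at 1 week, and the Cxcl11 peak at 8.2 kb drops from 53.1 to 2.65.

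Cxcl12, the ligand of Cxcr4, became less accessible at its start. The peak had 87.6, 88.6 and 103.0 in NSPs, 69.5, 63.4 and 68.8 at 72 h, and 55.5, 46.8, 46.2 and 59.0 at 1 week. NSP, 72 h and 1 week libraries did not overlap, and the difference from NSPs was -0.84 ± 0.23 (adjusted p = 0.00204) at 1 week and -0.46 ± 0.24 (adjusted p = 0.106) at 72 h. The 24 h difference, -0.64 ± 0.24 with an adjusted p of 0.0325, was lost without NSP replicate 2 (0.0545) or 3 (0.106) or without 24 h replicate 1 (0.1) or 3 (0.209), and was -0.41 in the last case. It was also lost with total-read scaling (-0.45, 0.142), in edgeR (-0.55, 0.0528) and with only the compared groups (0.0948). The peaks 1.51 kb before the start and 5.55 kb inside the gene, chr6:117166774-117167274 and chr6:117173838-117174338, were called in no comparison. They ranged over the untreated groups from means of 74.6 to 97.6 and of 78.2 to 98.4.

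The peak 2.16 kb outside the lower end of Cxcl16, chr11:70451978-70452478, overlaps Med11, a gene for a subunit of the Mediator complex, and was the most accessible of the 21. It had 724, 854 and 849 in NSPs, 954, 916 and 1092 at 72 h, and 1450.4, 1503, 1389 and 1484 at 1 week. These groups did not overlap. The difference from NSPs was 0.29 ± 0.10 (adjusted p = 0.0176) at 72 h and 0.85 ± 0.10 (6.41e-09) at 1 week. The 72 h call was lost without NSP replicate 1 (adjusted p = 0.0817) or replicate 3 of 72 h (0.11), and with only the compared groups in the fit (0.0829).

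Between 72 h and 1 week, 3 of the 21 peaks rose and 3 fell, where 22.5% and 16.2% of all peaks did. With libraries scaled by total reads in place of the deposited scaling, 2 rose and 5 fell. Those that rose were the Med11 peak near Cxcl16 (0.56 ± 0.10, adjusted p = 4.31e-05), the Cxcl1 peak at 15.02 kb (0.74 ± 0.19, 0.00243) and a peak in Sdad1, 11.31 kb outside the lower end of Cxcl9, chr5:92309770-92310270 (0.68 ± 0.13, 0.000232). The last had 165, 244 and 217 at 72 h and 287, 334, 352 and 355 at 1 week, without overlap, and was also higher than in NSPs, by 0.43 ± 0.13 (adjusted p = 0.00563). With loess offsets the Med11 difference was 0.01, and with total-read scaling the Cxcl1 difference was 0.40 with an adjusted p of 0.0989. The falls were those of the Cxcl11 peaks at 8.24 kb (-2.40 ± 0.41, adjusted p = 4.21e-05) and 5.98 kb (-0.73 ± 0.16, 0.000787) and of the Cxcl5 peak at 17.07 kb (-1.24 ± 0.47, 0.0367). The Cxcl5 call was lost without replicate 1, 2 or 3 of 72 h (adjusted p = 0.0581, 0.123 and 0.071) and without replicate 1 of 1 week (0.192). It was also lost in edgeR (-1.16, adjusted p = 0.0741) and DESeq2 (-1.12, 0.0668), with a pseudocount of 5 (-0.78, 0.0577) and with loess offsets (-0.56, 0.406).

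Over the 6 comparisons of groups, 16 of the 21 peaks were called at least once and 5 never, where 85.3% of all peaks were called at least once. Against NSPs, 15 of 21 were called at some time, and 81.6% of all peaks. Of the 4 peaks that rose with TNF, 3 also differed from NSPs during differentiation. The direction was the same at the distal Cxcl1 peak and opposite at the Cxcl11 peak. At the Cxcl10 start it was the same where called, at 72 h and 1 week. The 72 h call was lost under 8 of 16 alternatives, and the 24 h difference was negative (-0.44 ± 0.22, adjusted p = 0.0993). Of all peaks that rose with TNF at both times, 83% also differed from NSPs, so 3 of 4 lies near the background.

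For the 5 genes with a peak within 1 kb of an end, 11659 gene-end peaks outside the members were ranked. The ranking used Pearson's r of log2(value + 1) over the 19 libraries. The libraries share groups and depth, so r is a description. The peaks most like that of Cxcl10 were at P2rx7, an ATP-gated ion channel (r = 0.948), Sik1, a salt-inducible kinase (0.913), and H2-Q4, an MHC class I gene (0.906). H2-Q4 had means of 302 at 24 h and 520.0 with TNF, and of 292 at 72 h and 725 with TNF. For Cxcl5 they were at Galnt3, Arsj and Sgip1 (0.858 to 0.885), for Cxcl11 at Syt5, Sema5a and Dmbx1 (0.759 to 0.785), for Cxcl12 at Map3k15, Aebp1 and Arhgef10 (0.806 to 0.838), and for Cxcl16 at Slc6a16, Plgrkt and Parp14 (0.800 to 0.866).

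The rest of the CXC system was examined as 18 further genes with the same 20 kb rule. No peak lay near Cxcl3, Cxcl15 or Cxcr1, and 48 peaks lay in the other windows outside those of the members, the windows of Pf4 and Ppbp holding only peaks of Cxcl5. With TNF, 3 of the 48 were higher and 4 lower at 24 h, and 4 higher and 3 lower at 72 h, with medians of -0.11 and -0.10. Over all peaks 7.06% and 3.53% were called at 24 h and 6.24% and 5.55% at 72 h. The 4 lower at 24 h are a larger share than over all peaks, and the other counts lie near the background. By role, the 13 ligand peaks had 1 higher and 2 lower at 24 h and 1 higher and 0 lower at 72 h, the 26 receptor peaks 2 and 2, then 2 and 3, and the 9 peaks of the ligand-cutting enzymes Dpp4, Adam10 and Adam17 had 0 and 0, then 1 and 0. The examples that follow were chosen after their values were seen. They leave out called peaks near Cxcl13, Cxcl14, Cxcl17, Cxcr5 and Dpp4. Whether the 48 peaks overlap other genes was not examined. A peak 18268 bp from Cxcr2, the receptor of Cxcl1, Cxcl2 and Cxcl5, rose from a mean of 34.7 ± 8.7 (SD, n = 3) to 167 ± 30.7 at 24 h (log2 difference 2.24 ± 0.29, adjusted p = 3.66e-06). At 72 h its means were 42.3 and 73.1 with TNF, which did not pass the test (0.78 ± 0.29, adjusted p = 0.0764). A peak 10080 bp from Ackr3, the scavenging receptor of Cxcl12, rose at both times (1.35 ± 0.28, adjusted p = 0.00128, and 1.38 ± 0.28, 0.00102), while another at 12779 bp fell at 24 h (-0.59 ± 0.19, 0.0453), and a peak 10136 bp from Ackr1, an atypical receptor that binds many chemokines, fell at both (-0.62 ± 0.18, 0.0264, and -1.12 ± 0.18, 0.000122).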

How the data were processed

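ATAC-seq was performed in 19 libraries, grouped by their sample titles. According to the study's methods and the submitters' processing notes, reads were checked with FastQC, trimmed with Trim Galore, aligned with Bowtie2 to mm10, filtered with SAMtools, and peaks were called with MACS2. Blacklisted regions were removed, and HOMER and DiffBind followed. Tool versions are not given in the sources used here. The deposited values are a signal: the authors counted reads in each peak and scaled every library by a size factor. In every library 100% of values were whole multiples, within 0.01, of the worth of 1 read, so whole reads were recovered. The worth of 1 read was taken as the lowest value of the library. A peak without reads could therefore not be told from a peak with 1 read. Treatment of duplicates and of the transposase offset is not given. Recovered reads may not be independent molecules.

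Values were transformed to log2(value + 1) and fitted by limma-trend (limma 3.58.1, R 4.3.3) with a mean per group over all 19 libraries. This scale understates changes of low peaks. Peaks kept by filterByExpr (edgeR 4.0.16, minimum count 10) numbered 88919, and 1235 were not tested. All tests were two-sided, with Benjamini-Hochberg adjustment over the peaks tested in each of 7 comparisons. DESeq2 applied its default filtering of peaks before this adjustment. The planned test for raw counts was not used, because the values were normalised. edgeR, DESeq2 1.42.0, other scalings, filters, pseudocounts, windows, blocks and leaving out each replicate were alternatives. The code was tested on simulated data. The labels do not tie libraries to separate cultures or animals, so p-values measure the spread between these libraries, which may be technical.

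Positions are those of the deposited table. Gene bodies and promoter windows came from RefSeq, GRCm38.p6; exons were not used, and strand was taken from the promoter windows. Named peaks were the closest peak of each gene and, per locus and comparison, the called peak with the smallest p in each direction. Likeness used the top 3 gene-end peaks. Any other peak was named after its values were seen. The members and lists were chosen with earlier results of these data known. Marker lists for astrocytes, neural stem cells, microglia, neurons, oligodendrocytes, endothelium and fibroblasts had gene-end peaks for 6 of 7, 3 of 5, 2 of 7, 3 of 5, 2 of 5, 1 of 5 and 2 of 5 genes.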

Additional observations from a re-analysis of the deposited data

Results flagged for a closer look

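Within the 4 libraries of 1 week, the 21 peaks were checked for a library far from the other three. At the start of Cxcl10, replicate 3 had 81.4 against 102 to 104.04 in the others, and its gap took up 0.914 of the range. At the peak 0.3 kb outside Cxcl11, replicate 2 had 52.2 against 37.4 to 39.7, with a gap of 0.847 of the range. Both exceed Dixon's 95% limit for 4 samples, which chance passes in about 1 of 20 groups, and 21 peaks were checked. The 1 week difference of Cxcl10 from NSPs was called under each of the 17 alternatives, with log2 values from 0.81 to 1.01.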

How the results depend on the processing

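Of the 46 called differences at single peaks, 29 stayed called under every alternative and none changed sign. Counts at 24 h against NSPs were 2 higher (10 kb windows, 16 peaks) and 8 higher and 6 lower (50 kb windows, 35 peaks). At 72 h 8 were lower with 50 kb. At 1 week 4 and 15 were higher with 10 kb and 50 kb, and against 72 h 1 and 8. These windows hold fewer or more peaks by construction. Total-read scaling gave 5 lower at 1 week against 72 h and moved the median of all peaks in that comparison from 0.02 to -0.31, at 24 h against NSPs from -0.07 to 0.11 and at 72 h from -0.06 to 0.21. Fitting only the compared groups gave 6 higher and 1 lower with TNF at 72 h, against 4 and 0 in the main fit. Leaving out 1 replicate gave 1 to 4 lower at 24 h (3 to 5 higher) and 2 to 5 higher with TNF at 24 h, the lowest without replicate 3 of 24 h and of 24 h with TNF. Uncalled TNF differences changed sign at Cxcl2 at 24 h (-0.21 to 0.37 without 1 library, negative at -0.21 and -0.01) and at the Cxcl11 peak of 0.3 kb (-0.18 to 0.41 at 24 h and -0.16 to 0.22 at 72 h without 1 library, -0.02 at 72 h with total-read scaling). The causes were not tested. After the group means were subtracted, same-numbered libraries of compared groups correlated from -0.03 to 0.11, so numbers were not treated as pairs. With the replicate block by title number, 3 peaks were higher with TNF at 24 h and 4 at 72 h. With that by library name number, 4 and 4 were. At peaks of a few reads, a further fall could not have been detected.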
